A study of Mus musculus with 12 samples.

Results

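The 10 genes described here mark the 2-cell-like state of mouse embryonic stem cells (ESCs): the 6 copies *Zscan4a* to *Zscan4f*, and *Zfp352*, *Tcstv1*, *Tcstv3* and *Gm4340*. They are 10 of the 55471 genes in the expression tables and were chosen by their gene names, with their measured levels in these same 12 libraries, WT and KO at both days, already known. Their own levels and differences are therefore given as a description with no test. The cells were of the J1 line, of 129S4/SvJae origin, grown without feeder cells in medium with serum and leukemia inhibitory factor (LIF). The 4 groups were WT and *Snap29* KO cells as undifferentiated ESCs (day 0), and WT and KO cells after 14 days of differentiation without LIF, of which 3 were in hanging drops and 11 on plates (day 14), with 3 libraries per group. *Snap29* encodes a SNARE protein of membrane fusion, and the study asked what its loss does to ESCs and to their differentiation. The KO cells at day 0 were 1 clone, KO-2, with an insertion of 1 bp in exon 2, and no clone was named for day 14. The paper picked KO-2 among its knockout clones for sequencing because it showed more differences, so it need not be typical of them.

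Single ESCs pass now and then through a short-lived state in which they express genes of the 2-cell embryo. *Zscan4* proteins, zinc finger proteins with a SCAN domain, are expressed in that state and take part in telomere lengthening, and the transcription factor Dux can switch the state on. In a culture, most of the RNA of these genes comes from the few cells in the state. In RNA from a whole culture, more cells in the state and more of this RNA per cell cannot be told apart.

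The *Zscan4* copies lie side by side on chromosome 7 (mm10), from chr7:10794242-10799057 (*Zscan4a*) to chr7:11397915-11402318 (*Zscan4f*). The others are *Zfp352* (chr4:90218820-90225702), *Tcstv1* (chr13:119893388-119894785), *Tcstv3* (chr13:120316878-120318178) and *Gm4340* (chr10:104194042-104196522). The annotation in the tables calls *Zscan4a* an unprocessed pseudogene and the other 9 protein coding. RefSeq (GRCm38.p6) gave promoters for 6 of the 10, as windows from 250 bases before to 50 after the start of the gene, and none was matched for *Zscan4a*, *Zscan4e*, *Tcstv1* and *Tcstv3*. The last 150 bases before the start are shown, because the 4 *Zscan4* windows share the same 2 stretches, in capitals: GATAGAATC and TATAAA. The first is a match to GATNNAATC, searched on both strands, a pattern of the kind that double homeodomain factors such as Dux bind. The second is a TATA box sequence, searched on the strand of the gene. The windows are chr7:10905051-10905200 on the minus strand, chr7:11005595-11005744 on the plus strand, chr7:11166149-11166298 on the minus strand and chr7:11397765-11397914 on the plus strand.
Zscan4b: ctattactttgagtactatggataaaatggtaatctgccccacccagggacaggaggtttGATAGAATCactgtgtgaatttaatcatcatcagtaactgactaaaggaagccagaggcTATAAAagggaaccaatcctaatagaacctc
Zscan4c: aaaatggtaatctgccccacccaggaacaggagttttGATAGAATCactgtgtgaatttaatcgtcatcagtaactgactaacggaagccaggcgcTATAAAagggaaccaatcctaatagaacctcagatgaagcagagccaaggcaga
Zscan4d: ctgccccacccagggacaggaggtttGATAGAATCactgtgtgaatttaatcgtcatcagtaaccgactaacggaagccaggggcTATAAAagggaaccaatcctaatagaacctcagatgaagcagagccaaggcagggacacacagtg
Zscan4f: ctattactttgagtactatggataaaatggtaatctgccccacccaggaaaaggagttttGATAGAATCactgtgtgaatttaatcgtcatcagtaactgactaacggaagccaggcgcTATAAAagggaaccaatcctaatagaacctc

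In all 4 windows the first base of GATAGAATC lay 59 bases before that of TATAAA, and its position against the annotated start was −90 in *Zscan4b* and *Zscan4f*, −113 in *Zscan4c* and −124 in *Zscan4d*. Over their whole windows the 4 promoters were 95.3% to 99.3% identical in 6 pairs. GATNNAATC occurred in 1.58% of all 32851 promoters of the same length, and TATAAA on the gene's strand in 8.32%. Another pattern, TGCACAC, which Zscan4 protein is known to bind, occurred in 4.4% of promoters (both strands) and in none of the 6.

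The *Gm4340* promoter (chr10:104193892-104194041, plus strand) and that of *Zfp352* (chr4:90218590-90218789, plus strand, 200 bases ending 31 bases before the start) are shown for what sets them apart from the *Zscan4* copies. *Gm4340* holds GATNNAATC as GATTGAATC, and 1 match to TAATCC on the other strand. TAATCC, searched on both strands, is a letter pattern bound by bicoid-type homeodomain factors such as Otx2, and 7.06% of promoters hold it at least once. *Zfp352* has no GATNNAATC but 9 copies of TAATCC in a tandem repeat, 20 to 21 bases apart, and it was the only promoter of the 32851 with at least 9. No match to one of these patterns overlapped a match to another, and a match is a description of the letters, not of binding.
Gm4340: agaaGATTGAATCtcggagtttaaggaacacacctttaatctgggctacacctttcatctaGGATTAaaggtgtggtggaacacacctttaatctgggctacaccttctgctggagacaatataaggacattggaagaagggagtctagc
Zfp352: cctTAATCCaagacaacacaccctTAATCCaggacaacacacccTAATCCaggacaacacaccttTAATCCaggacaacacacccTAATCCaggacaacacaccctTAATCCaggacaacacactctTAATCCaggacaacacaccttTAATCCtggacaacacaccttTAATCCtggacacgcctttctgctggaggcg

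The transcripts of the 6 *Zscan4* copies are 96.6% to 99.7% identical in 15 pairs (GENCODE M21, longest transcript of each). A stretch of 60 coding bases without gaps, chr7:11009072-11009131 in *Zscan4c*, shows how little separates them. It was chosen for the most distinct sequences (5) and then for the most differing positions. Capitals mark the 9 positions where the copies are not all alike.
Zscan4a: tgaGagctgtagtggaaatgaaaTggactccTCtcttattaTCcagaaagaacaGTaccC
Zscan4b: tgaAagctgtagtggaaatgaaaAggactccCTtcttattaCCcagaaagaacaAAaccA
Zscan4c: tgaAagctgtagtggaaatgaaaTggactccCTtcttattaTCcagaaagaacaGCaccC
Zscan4d: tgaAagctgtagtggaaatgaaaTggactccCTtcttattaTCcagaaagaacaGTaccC
Zscan4e: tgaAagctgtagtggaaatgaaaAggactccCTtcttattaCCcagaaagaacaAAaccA
Zscan4f: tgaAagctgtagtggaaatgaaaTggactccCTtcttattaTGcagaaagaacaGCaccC

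*Zscan4b* and *Zscan4e* are identical over this stretch, and *Zscan4c* and *Zscan4d* differ at 1 of the 60 bases. How the study treated reads that fit several copies is not given in the sources used here, so the split of reads between copies is uncertain. Of all windows of 150 bases, the length of a read, 87.0% in *Zscan4d* and 74.9% in *Zscan4a* occurred in no transcript of another gene, against 39.0% in *Zscan4c*, 31.6% in *Zscan4b*, 22.6% in *Zscan4e* and 13.8% in *Zscan4f*. For *Gm4340* the share was 10.3%, and for *Zfp352*, *Tcstv1* and *Tcstv3* it was 100%. The reads were paired, so a fragment can cover more sequence than a window, and these shares can understate how well it is placed.

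Each library held 16638790 to 19226488 fragments assigned to genes, and levels are in FPKM, fragments scaled by gene length and library size. *Snap29* had a mean of 5.99 FPKM in WT and 0.561 in KO at day 0, and of 9.06 and 2.02 at day 14. In the KO libraries *Atrx*, which encodes a chromatin remodeller that acts with Daxx in silencing repeats, also stood at 0.155 FPKM against 12.6 in WT at day 0, and at 0.107 against 10.5 at day 14. Differences between KO and WT thus cannot be assigned to *Snap29* alone. WT replicate 3 of day 14 stood apart: its *Atrx* level was 6.24 FPKM, against 12.6 in each of the other WT libraries of that day. This dip was not particular to *Atrx*. *Dnmt1* stood at 36.1, 38.2 and 19.2 FPKM in WT replicates 1 to 3 of day 14, and *Mga* at 13.7, 15.9 and 6.69 FPKM. Other genes did not dip, such as *Daxx* at 22.5, 22.7 and 25.4 FPKM. The summed level of 5 ESC markers was 1577 to 1759 FPKM over the 6 libraries of day 0, so the markers of the labelled cell type were present, and was still 475 to 636 FPKM in WT at day 14, with KO at 646 to 701. The sum hides opposite moves at day 0. By limma (Benjamini-Hochberg adjusted p under 0.05) 2 of the 5 rose and 2 fell in KO, against 11% and 10.4% of all genes. *Esrrb* had means of 66.6 FPKM in WT and 133 in KO, and *Pou5f1* of 541 and 458.

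At day 0, the 2-cell-like genes stood higher in KO than in WT ESCs. For 9 of the 10 every KO library lay above every WT library, which also held for 19.9% of all 19238 genes tested. The 10 were chosen from this contrast, so that count is only a description. The summed level of the 6 *Zscan4* copies was 3.02 times as high in KO. That sum was 11.2, 11.2 and 10.6 FPKM in WT replicates 1 to 3, and the KO replicates reached 29.2, 35.1 and 35.2 FPKM. The lowest KO library thus stood well above the highest WT library.

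**Figure D1:**
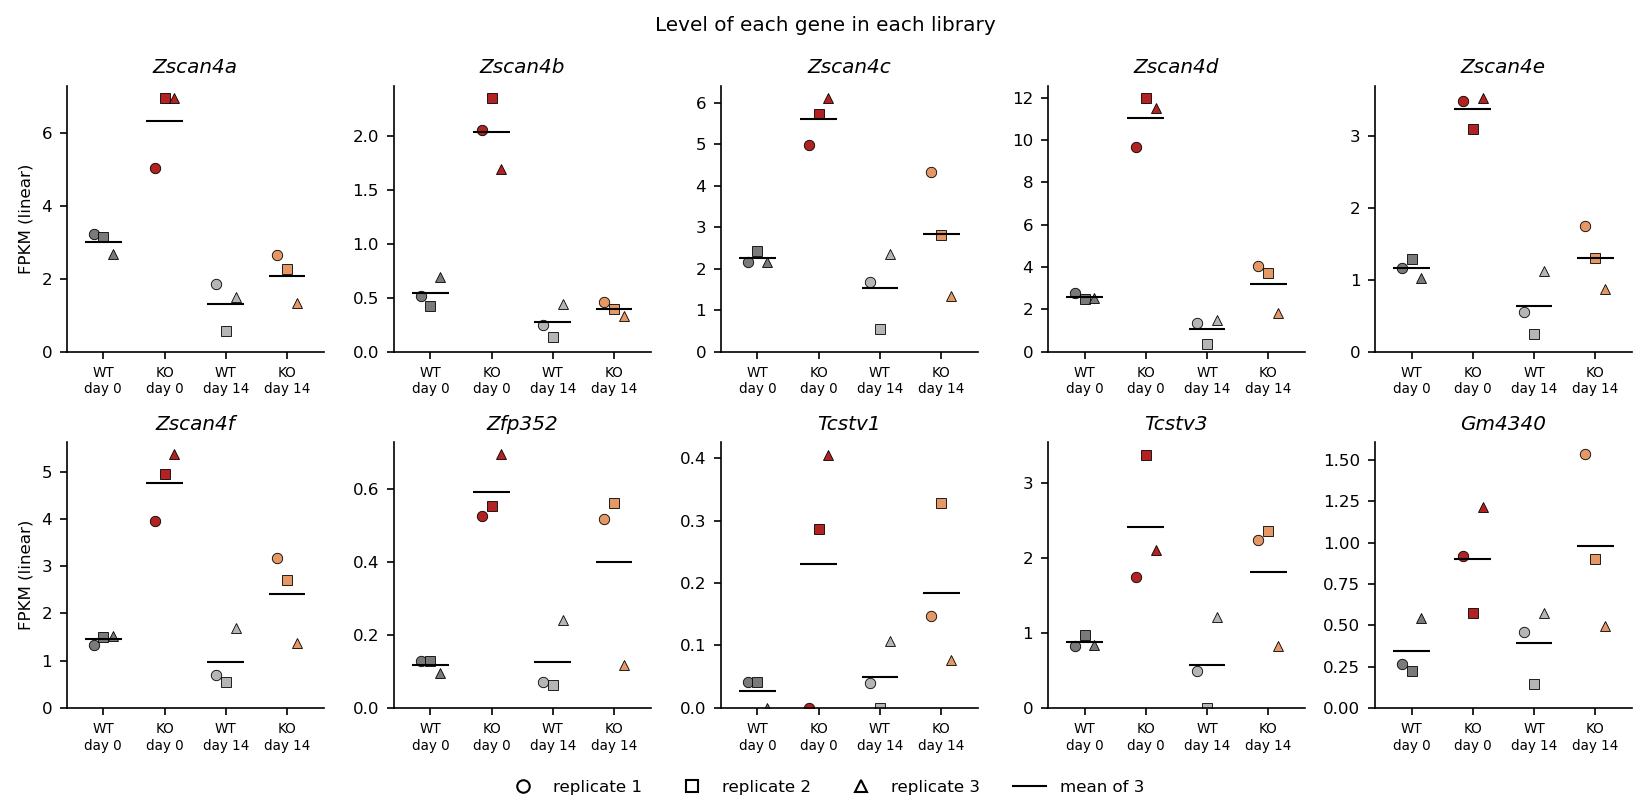
FPKM (linear axis from 0) of each of the 10 genes in the 12 libraries, with 1 symbol per replicate and a line at the mean of 3. At day 0 the KO libraries lie above the WT libraries for all genes but *Tcstv1* (19.9% of all genes tested), and at day 14 the groups overlap for all but *Zscan4d* (KO above WT in 15.1% of all genes tested).

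*Zscan4d*, the copy known as the one expressed in the 2-cell embryo, had the widest gap. The WT replicates stood at 2.76, 2.47 and 2.51 FPKM (97 to 108 fragments), whereas the KO replicates reached 9.68, 11.97 and 11.5 FPKM (386 to 475 fragments), a log2 difference of 2.05 (SE 0.095). *Zscan4c*, the copy known to be expressed in ESCs, stood at 2.17, 2.42 and 2.15 FPKM in WT replicates, with KO replicates at 4.98, 5.74 and 6.12 FPKM, a log2 difference of 1.28 (SE 0.099). Neither gene had a KO library near the WT range.

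*Zscan4f* went from 1.34, 1.51 and 1.52 FPKM (WT) to 3.95, 4.94 and 5.38 FPKM (KO; log2 difference 1.63, SE 0.13). *Zscan4e* went from 1.17, 1.29 and 1.03 to 3.49, 3.10 and 3.54 FPKM (log2 difference 1.46, SE 0.12). *Zscan4b* had the lowest level of the 6, at 0.516, 0.418 and 0.693 FPKM in WT, against 2.05, 2.35 and 1.70 FPKM in KO (log2 difference 1.74, SE 0.21). In all 3 the groups were apart. *Zscan4a*, which had the highest mean of the copies in WT, had the smallest difference, from 3.21, 3.13 and 2.67 FPKM to 5.02, 6.96 and 6.96 FPKM (log2 difference 1.04, SE 0.14).

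The make-up of the *Zscan4* sum therefore differed between the groups. *Zscan4d* made 22.01% to 24.7% of the sum in WT, against 32.7% to 34.1% in KO, while *Zscan4a* made 25.2% to 28.8% in WT and 17.2% to 19.9% in KO. The *Zscan4c* share was also apart, at 19.4% to 21.5% in WT and 16.4% to 17.4% in KO, and the shares of the other copies overlapped. *Zscan4d* and *Zscan4a* are the 2 copies with the most sequence of their own, whereas *Zscan4c* has less (39.0% of windows). At day 14 the *Zscan4d* share was 15.8% to 21.2% in WT and 24.6% to 28.2% in KO, again with no overlap, whereas the *Zscan4a* share overlapped (17.4% to 29.0% and 16.1% to 18.7%). The *Zscan4c* share overlapped there too (22.7% to 27.5% in WT and 19.1% to 26.5% in KO).

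**Figure D2:**
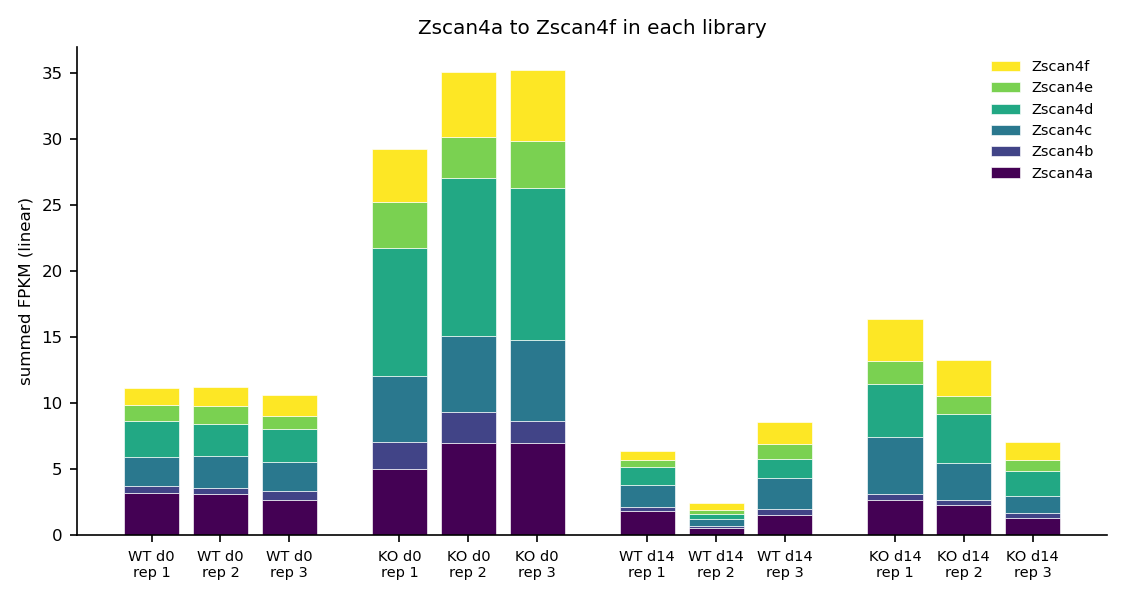
Summed FPKM (linear axis from 0) of *Zscan4a* to *Zscan4f* in each library, stacked by copy (d is day, rep is replicate). The sum lies at 10.6 to 11.2 FPKM for WT and 29.2 to 35.2 FPKM for KO at day 0, and at 2.40 to 8.57 and 7.05 to 16.4 FPKM at day 14.

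Outside the cluster the levels were lower. *Zfp352*, which encodes a zinc finger protein of the early embryo, stood at 0.128, 0.127 and 0.0954 FPKM in WT, against 0.526, 0.554 and 0.697 FPKM in KO (log2 difference 1.67, SE 0.22). The WT values rest on 4 to 5 fragments per library and the KO values on 21 to 28. *Tcstv3*, of a small gene family expressed in 2-cell embryos, went from 0.821, 0.967 and 0.836 FPKM to 1.76, 3.38 and 2.11 FPKM in KO (log2 difference 1.32, SE 0.24), with no overlap.

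Its relative *Tcstv1* was barely detected: 1, 1 and 0 fragments in the WT and 0, 7 and 10 in the KO libraries. It did not reach 0.1 FPKM in 3 libraries, had no fit at day 0, and overlapped between the groups. *Gm4340* went from 0.268, 0.222 and 0.542 FPKM to 0.918, 0.571 and 1.22 FPKM in KO (log2 difference 1.19, SE 0.36), and its lowest KO library lay just above its highest WT library.

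At day 0, 9 of the 10 genes passed the filter and were fitted. The KO libraries lay above all WT libraries in 19.9% of all 19238 genes tested. The 10 genes were chosen from this contrast, so nothing is read from their count. The median log2 difference of the 9 was 1.46, against 0.00 (−0.00434) over all genes.

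**Figure D3:**
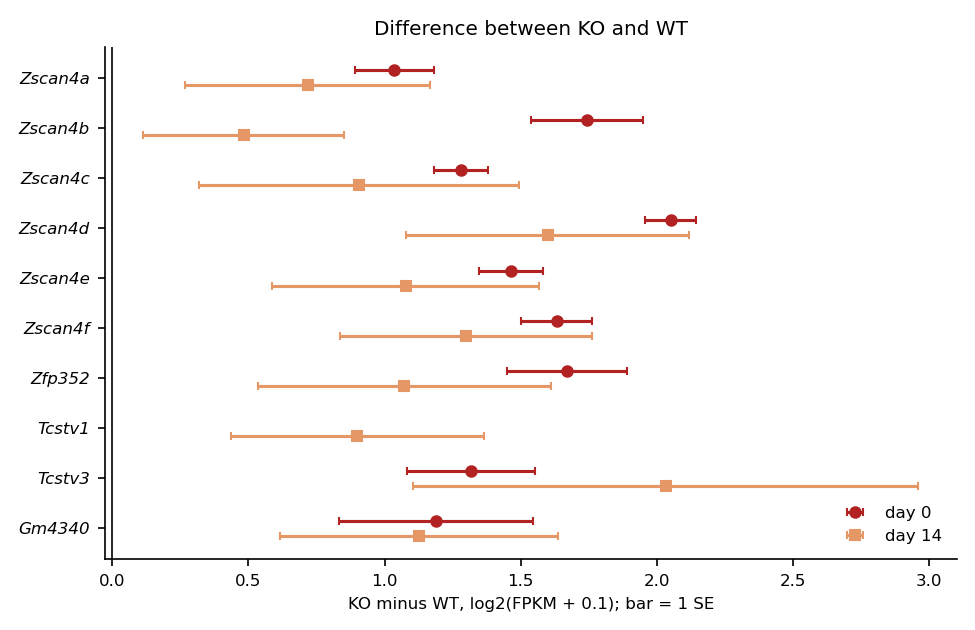
KO minus WT on the log2(FPKM + 0.1) scale for each gene at day 0 (circles) and day 14 (squares), with bars of 1 SE from 3 libraries against 3. The values run from 1.04 to 2.05 at day 0 (*Tcstv1* not fitted) and from 0.48 to 2.03 at day 14, where the bars are longer.

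At day 14 all 10 genes had a higher mean in KO, with log2 differences of 0.48 (*Zscan4b*) to 2.03 (*Tcstv3*) and a median of 1.08, but the libraries of each group were spread out and only *Zscan4d* did not overlap. The WT replicates had *Zscan4d* at 1.35, 0.379 and 1.48 FPKM, against 4.03, 3.73 and 1.82 FPKM in KO (log2 difference 1.60, SE 0.52). *Zscan4c* stood at 1.68, 0.546 and 2.35 FPKM in WT, against 4.33, 2.80 and 1.34 FPKM in KO (log2 difference 0.91, SE 0.59), so that KO replicate 3 lay below 2 of the WT libraries. *Tcstv3* stood at 0.491, 0 and 1.22 FPKM in WT, against 2.24, 2.36 and 0.827 FPKM in KO, with a standard error of 0.93.

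The spread was shared by the genes. WT replicate 2 was the lowest WT library for 10 of the 10 and WT replicate 3 the highest for 9, while KO replicate 3 was the lowest KO library for 10 of the 10. Over the 12 libraries the 45 pairs of genes had a Pearson r of log2(FPKM + 0.1) of 0.37 to 0.98 with a median of 0.83, a description in which the points share their libraries and groups. Near-identical *Zscan4* copies may also share reads, so the 10 are not 10 separate readings. The summed *Zscan4* level was 6.36, 2.40 and 8.57 FPKM in WT, against 16.4, 13.2 and 7.05 FPKM in KO.

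At day 14 the KO libraries lay above all WT libraries in 15.1% of the 20506 genes tested, and limma called 1.45% higher and 0.883% lower (Benjamini-Hochberg adjusted p under 0.05). Those calls hung on single libraries: the 298 genes called higher became 1804 without WT replicate 3 and 16 to 52 without any other library. Other cell types moved with the groups and libraries. The summed level of 7 trophoblast markers was 188, 318 and 142 FPKM in WT, against 24.0 to 24.6 FPKM in KO, and that of 5 markers of cardiac and skeletal muscle was 32.8, 22.6 and 75.7 FPKM in WT, against 167 to 199 FPKM in KO. By limma 4 of the 7 trophoblast markers fell. Of the 5 muscle markers 1 rose, *Acta1* (skeletal actin), which made most of that sum (means of 29.1 FPKM in WT and 158 FPKM in KO), while *Actn2* stood at 3.61 and 3.76 FPKM and the cardiac myosin gene *Myh6* at 0.945 and 0.757 FPKM. WT replicate 2, with the lowest *Zscan4* sum, had the most trophoblast and the least muscle signal, and WT replicate 3, with the highest sum, the reverse. The KO libraries did not show this order: replicate 3, with the lowest *Zscan4* sum, had 196 FPKM of muscle markers, against 199 and 167 FPKM in replicates 1 and 2. The summed level of 5 endoderm and yolk sac markers was 28.0, 18.4 and 5.31 FPKM in WT, against 1.52 to 1.94 FPKM in KO, with 1 of the 5 called lower. The part of these cell types, and of the *Atrx* level of WT replicate 3, in the spread was not tested.

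From day 0 to day 14 the *Zscan4* copies fell in level. In WT the 9 genes fitted had a median log2 difference of −0.85, from −1.38 (*Zscan4d*) to 0.10 (*Gm4340*), and only *Zscan4a* and *Zscan4d* were apart between the days. In KO all 6 *Zscan4* copies were apart between the days, with differences from −1.02 (*Zscan4f*) to −2.11 (*Zscan4b*), while *Zfp352*, *Tcstv1*, *Tcstv3* and *Gm4340* overlapped and ran from −0.62 to 0.04. *Zscan4b* had the largest fall, from 2.05, 2.35 and 1.70 FPKM to 0.456, 0.397 and 0.328 FPKM.

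The sizes depended on single libraries. The WT median was −0.38 without WT replicate 2 of day 14 and −1.16 without WT replicate 3 of day 14, and it was −0.36 with a pseudocount of 1. The KO median, −1.06, was −0.67 without KO replicate 3 of day 14. All libraries of day 14 lay below those of day 0 in 31.2% of all genes in WT and 32.9% in KO, and limma called 26.4% of all genes lower and 29% higher in WT, and 29.8% and 33.5% in KO. Nothing is read from the counts of the 10 genes.

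The difference between KO and WT was smaller at day 14 than at day 0 for 9 of the 10 genes by point estimate, with a median change of −0.35 on the log2 scale, from −1.26 (*Zscan4b*, SE 0.42) to 0.71 (*Tcstv3*, SE 1.06). Without WT replicate 3 of day 14 the median became 0.048, and the difference was then larger at day 14 for 6 of the 10. Without KO replicate 3 of day 14 the median was −0.01 (−0.0117), and without WT replicate 2 of day 14 it was −0.79. The direction thus rested on single libraries of day 14. Of all 22913 genes tested, limma called 4.22% higher and 2.91% lower.

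By mean level the order in WT ESCs was *Zscan4a* (3.00 FPKM), *Zscan4d* (2.58), *Zscan4c* (2.25), *Zscan4f* (1.46), *Zscan4e* (1.16), *Tcstv3* (0.875), *Zscan4b* (0.542), *Gm4340* (0.344), *Zfp352* (0.117) and *Tcstv1* (0.0277), on a scale per length. Of the neighbours in this order, *Zscan4a* and *Zscan4d*, and *Zscan4b* and *Gm4340*, overlapped in range. In KO ESCs *Zscan4d* (11.0 FPKM) came first, above the range of *Zscan4a* (6.31 FPKM), and the remaining order was the same, with 5 overlapping neighbours. At day 14 each neighbour overlapped the next, in WT and in KO.

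The upstream factor was not seen. *Duxf3*, the gene of the Dux family that the tables list, had 0 fragments in each of the 12 libraries, which allows up to 3 fragments, or 0.0532 to 0.0647 FPKM, counting error only. Since it lies in a repeat array and the treatment of multiply mapped reads is not given, its level cannot be read from this.

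Other genes of the 2-cell-like state were taken from a list of 52 symbols, chosen with earlier results of these data known. It holds further *Zscan4* copies and genes of other families, so its calls are not independent and its count is only a description. Of the 52, 49 were in the tables and 34 passed the filter at day 0. A gene could pass through the group where it stood higher, as *Gm13078* could through KO (means of 0.0711 FPKM in WT and 0.270 in KO). The genes tested can therefore lean towards those higher in KO. Of these 34, 21 rose and 1 fell in KO ESCs by limma (Benjamini-Hochberg adjusted p under 0.05), where 11% of all 19238 genes tested rose and 10.4% fell, and the list's median log2 difference was 1.10, against 0.00 (−0.00434) over all genes. The 21 became 14 to 17 when 1 library was left out and 11 when the 4 groups shared a fit. *Gm5662*, an eIF1A-like gene of chromosome 12, rose from 2.50, 2.58 and 2.57 FPKM to 10.7, 10.8 and 10.9 FPKM (log2 difference 2.04, SE 0.052, adjusted p = 1.09e-05). Its levels in the 3 libraries of a group were within a few percent of each other. Its relatives *Gm8300* (log2 difference 2.18, adjusted p = 3.7e-05) and *Gm2016* (2.08, adjusted p = 0.000104) rose by as much.

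*Usp17lb* and *Usp17le*, ubiquitin protease genes of the Dub family on chromosome 7, rose from a mean of 0.692 to 3.91 FPKM and from 0.783 to 4.54 FPKM (adjusted p = 6.22e-05 and 0.000133). The further copies *Zscan4-ps2* and *Zscan4-ps3* rose as well, from 1.02 to 4.03 FPKM (adjusted p = 0.000144) and from 1.85 to 6.30 FPKM (adjusted p = 0.000175). They are pseudogenes by their symbols, but the annotation calls them protein coding, and they share the caveat on near-identical copies. *Calcoco2*, an autophagy receptor gene, fell from 41.8 to 25.6 FPKM (log2 difference −0.70, adjusted p = 0.000998). It is the most abundant of the list, and RNA of a whole culture cannot show which cells express it. *Rxra*, a retinoid X receptor gene, rose from 3.19 to 5.04 FPKM (log2 difference 0.64, adjusted p = 0.00252). At day 14 neither was called, with log2 differences of 0.37 and −0.35 (adjusted p = 0.271 and 0.327).

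**Figure D4:**
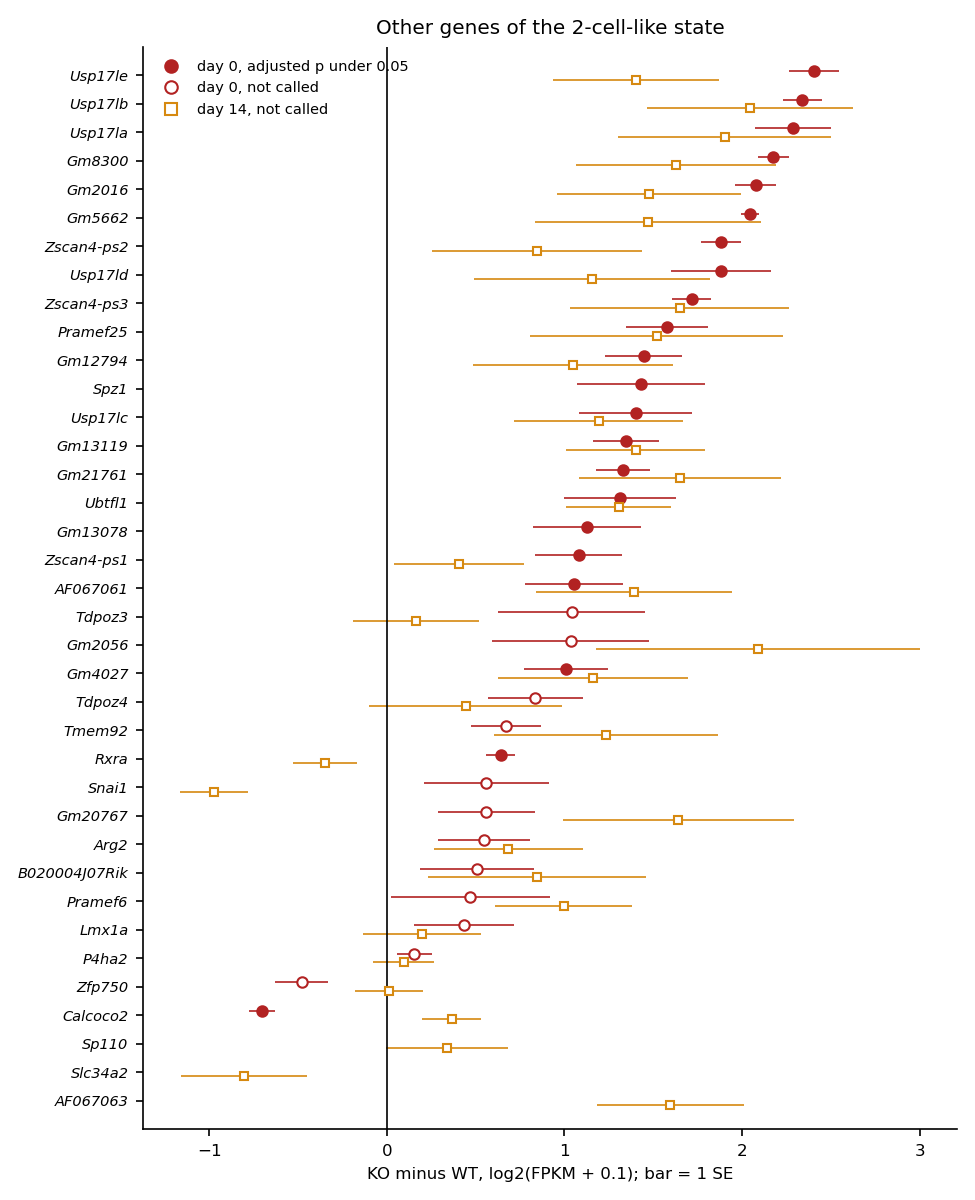
KO minus WT on the log2(FPKM + 0.1) scale for the other genes of the 2-cell-like state, with bars of 1 SE, circles for day 0 (filled where called) and squares for day 14. At day 0, 21 genes are called higher and 1 (*Calcoco2*) lower, and at day 14 none is called.

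At day 14 the same list had 35 genes tested and a median of 1.16, against 0.03 over all genes, and 32 of the 35 had a positive value. The filter can lean these values towards KO in the same way as at day 0. None was called by limma (14 higher and 1 lower at an unadjusted p under 0.05), and voom called 1 higher and 1 lower. Without WT replicate 3, 6 were called higher and 1 lower, and with the 4 groups in one fit 9 were called higher. In 7 of the 35 the KO libraries lay above all WT libraries, as they did in 15.1% of all genes. *Gm5662* stood at 3.65, 1.07 and 5.66 FPKM in WT, against 11.3, 10.6 and 4.26 FPKM in KO (adjusted p = 0.253), with the same lowest and highest WT libraries, and the same lowest KO library, as the *Zscan4* copies.

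RefSeq gave promoters for 19 genes of this list, and 4 of them held GATNNAATC (*AF067061*, *Duxf3*, *Gm21761* and *Sp110*). TATAAA occurred in 3 (*Usp17lb*, *Usp17lc* and *Usp17ld*). The other 12 of the 19 held neither in these windows.

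Among 49 known activators and repressors of the state, all tested, 5 rose and 15 fell in KO ESCs, where 11% of all genes rose and 10.4% fell, so that the number of rises was near the background. Besides *Atrx* (log2 difference −5.64, adjusted p = 7.01e-06), the largest fall was in *Dppa3*, a maternal factor also called Stella, from 4.50, 3.70 and 3.65 FPKM to 0.702, 0.899 and 1.08 FPKM (log2 difference −2.04, SE 0.17, adjusted p = 0.000426). *Lin28a*, an RNA binding protein, fell from a mean of 106 to 57.8 FPKM (adjusted p = 0.000104), and *L3mbtl2*, a Polycomb group protein, from 22.1 to 17.3 FPKM (adjusted p = 0.00144). *Dppa2* and *Dppa4*, which activate *Dux* and are members of this list, fell slightly, by 0.19 and 0.29 on the log2 scale (adjusted p = 0.0467 and 0.0086).

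Of those that rose, *Tbx3*, a transcription factor of pluripotency, went from 13.8 to 22.8 FPKM (adjusted p = 0.000387) and *Tet2*, which oxidises 5-methylcytosine, from 9.09 to 12.9 FPKM (adjusted p = 0.00422). The list thus held falls of some activators (*Dppa2*, *Dppa4*) and of some repressors (*L3mbtl2*, *Rif1*), named as examples. With 1 library left out, the log2 differences were −0.24 to −0.15 for *Dppa2* and −0.32 to −0.25 for *Dppa4*. They were −0.36 to −0.33 for *L3mbtl2* and −0.42 to −0.33 for *Rif1*. The falls of *Atrx*, *Dppa3* and *Lin28a* were larger (−0.91 to −0.84 for *Lin28a*). Whether activators and repressors differed as sets was not tested. The many small falls depend on the scaling: with TPM, which moved the median of all genes by 0.10, 3 of the 49 fell. When the 4 groups shared a fit, 1 rose and 8 fell. The fall of *Dppa2* was called when KO replicate 2 was left out, but not without any of the other libraries (adjusted p = 0.101 to 0.136). At day 14, 2 fell, *Atrx* and the corepressor *Rcor1* (14.7 to 8.39 FPKM, adjusted p = 0.0279), and none rose by limma (2 at an unadjusted p under 0.05) or voom. The *Rcor1* call was lost when any library but WT replicate 3 was left out (adjusted p = 0.0786 to 0.131), and without WT replicate 3, 1 of the 49 genes rose and 5 fell.

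Since Zscan4 takes part in telomere lengthening, 18 telomere and recombination genes were read as well. At day 0, 3 of 15 tested rose and 2 fell, against 11% and 10.4% of all genes: *Mlh3* by 0.34, *Tinf2* by 0.26 and *Blm* by 0.20 on the log2 scale, against −0.74 for *Smc1b* and −0.19 for *Terf2* (adjusted p = 0.0131 to 0.0342). These calls were fragile. Under TPM scaling, or with the 4 groups in one fit, none of the 15 was called. The *Terf2* call was lost when any 1 library was left out (adjusted p = 0.0643 to 0.101) and the *Tinf2* call without any but WT replicate 1 (0.053 to 0.0824). *Blm* was lost without any 1 WT library or KO replicate 3 (0.0535 to 0.0594), *Smc1b* without WT replicate 1 or 2 (0.0531 and 0.0552), and *Mlh3* without KO replicate 1 (0.0505). None of 16 was called at day 14 (0 higher and 1 lower at an unadjusted p under 0.05, and none with voom), although 1 was called lower without WT replicate 3.

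Most of the other SCAN zinc finger genes had no call. Of 18 tested at day 0, 2 fell (*Zscan5b*, log2 difference −0.96, adjusted p = 0.00845, and *Zscan20*, −0.59, adjusted p = 0.046) and none rose by limma (1 at an unadjusted p under 0.05), where 10.4% of all genes fell and 11% rose, while voom called 2 higher. The *Zscan20* call was lost when any library but WT replicate 2 was left out (adjusted p = 0.0683 to 0.133), and 1 gene was called higher without WT replicate 1. With TPM, or the 4 groups in one fit, neither fall was called. The median was −0.01. None was called at day 14 by limma (1 higher and 1 lower at an unadjusted p under 0.05) or voom, and 1 was called lower without WT replicate 3.

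Around the *Zscan4* cluster, 6 genes within 500 kb that are not *Zscan4* copies were tested at day 0, and 1 was called (11% of all genes rose), *Gm45551*, which rose from a mean of 0.325 to 1.37 FPKM (adjusted p = 0.00158). *Zik1*, a zinc finger gene 298848 bases from *Zscan4a*, had a log2 difference of −0.07 (adjusted p = 0.503). At day 14, 2 of 7 fell, *Gm7789* (adjusted p = 0.0348) and *Gm6909* (adjusted p = 0.0485), at means of 1.02 and 0.381 FPKM in WT. Both calls were lost when any library but WT replicate 3 was left out (adjusted p = 0.0831 to 0.14 for *Gm7789* and 0.101 to 0.174 for *Gm6909*). Around *Tcstv1*, 3 of 14 rose at day 0: *Gm21761*, of the same family (3.36 to 8.48 FPKM, adjusted p = 0.00162), *Gm41077* (adjusted p = 0.0305) and the cholesterol synthesis gene *Hmgcs1* (38.8 to 52.3 FPKM, adjusted p = 0.00098). Around *Tcstv3*, 1 of 5 rose, *AF067061* (0.922 to 2.00 FPKM, adjusted p = 0.0374). *Gm21761* and *AF067061* are also on the list of other 2-cell-like genes and were counted there. *Zscan4* copies were left out around their cluster, whereas relatives of *Tcstv1* and *Tcstv3* were not left out here. With so few genes around each locus, these counts are not set apart from the 11% of all genes that rose. The *Gm41077* call held only without WT replicate 2 among the fits that left out a library (0.0567 to 0.0901 in the others), and that of *AF067061* only without WT replicate 2 or KO replicate 1 (0.0998 to 0.109 in the others). With the 4 groups in one fit none of these rises was called (0.0655 to 0.386).

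The genes whose levels over the 12 libraries ran most like the mean of the 10, of 22903 compared, were *Zscan4-ps3* (Pearson r = 0.98), *Gm21037* (r = 0.98), *Mrps12* (r = 0.97), *Gm5039* (r = 0.97) and *Tnfrsf22* (r = 0.96). *Zscan4-ps3* is a further copy in the cluster and *Gm5039* lies on chromosome 12. *Mrps12*, a mitochondrial ribosomal protein gene, and *Tnfrsf22*, a decoy receptor gene, are far more abundant and less spread: *Mrps12* had means of 31.8 FPKM in WT and 39.2 FPKM in KO at day 0, and of 30.0 and 34.7 FPKM at day 14. The points share their libraries and groups, so these values only describe likeness.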

How the data were processed

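Poly(A) RNA-seq of 12 libraries was used, with groups as labelled (4 of 3 libraries). FPKM was computed and deposited by the authors from paired-end reads of 150 bases, aligned by HISAT2 2.0.5 (mm10) and counted by featureCounts 1.5.0-p3, per the submitters' processing notes. The treatment of multiply mapped reads and the annotation release are not given in the sources used here. FPKM × gene length was a whole multiple of 1 step in 100% of values within 0.001, which gave the fragments. At 0.1 FPKM a gene rests on few fragments. Intervals and limits cover counting error only.

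Changes were fitted with limma 3.58.1 (R 4.3.3, eBayes with trend) on log2(FPKM + 0.1), a scale that understates the change of low genes, keeping genes that reached 0.1 FPKM in 3 or more of the libraries fitted, each comparison on its own groups, with Benjamini-Hochberg adjustment over all genes tested. The fit was also run on simulated counts, the outcome of which is not reported here. An exact permutation test of 3 against 3 cannot go below p = 0.1. The study calls the libraries of a group biological replicates. How they were grown apart is not stated, and p values measure the spread between them. The 10 genes and all lists were chosen with earlier results of these data known.

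Named were the 10 genes, *Snap29*, *Atrx* and *Duxf3*, up to 6 called genes per list with the smallest adjusted p, the 3 most abundant other 2-cell-like genes, called genes and neighbours within 500 kb, and the 5 most alike. *Dppa2*, *Dppa4* and *Rif1* were named after their values were seen. The settings varied were the pseudocount (1, 0.01), the filter (1 FPKM, no filter), TPM, median ratio scaling, the replicate number as a block, all 4 groups in one fit, leaving out each library, and, chosen after seeing the data, voom on the fragments. Sequences were aligned with mafft 7.526.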

Additional observations from a re-analysis of the deposited data

Results flagged for a closer look

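The KO effects of the days differed for *Dppa3* by an interaction term over all 12 libraries: the log2 difference between KO and WT was −2.04 at day 0 and −0.43 at day 14, a change of 1.61 (SE 0.30, limma adjusted p = 0.0103). *Dppa3* rose in both genotypes over the 14 days, to means of 40.9 FPKM in WT and 29.8 FPKM in KO. *Snap29* differed in the same way, from −3.22 to −2.11, a change of 1.11 (SE 0.22, adjusted p = 0.0153), and its KO level rose from 0.561 to 2.02 FPKM. With a pseudocount of 1 or TPM scaling the *Snap29* interaction was no longer called. *Calcoco2* went from −0.70 to 0.37, a change of 1.07 (SE 0.19, adjusted p = 0.00933), and *Rxra* from 0.64 to −0.35, a change of −0.99 (SE 0.21, adjusted p = 0.0182). For the pseudogene *Gm7789*, which lies among the *Zscan4* copies and had 0 to 2 fragments per library at day 0, the change was −1.96 (SE 0.49, adjusted p = 0.0383). The causes were not tested.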

How the results depend on the processing

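Those of the 10 genes that were fitted kept a positive difference at both days under each alternative that was run. With the filter of 1 FPKM these were only 7 genes at day 0 and 6 at day 14. The 10 were chosen with these differences known, so nothing is read from the constant sign. The median of the 9 genes at day 0, 1.46, became 0.97 with a pseudocount of 1 and 1.63 with TPM. The counts over all genes moved more. At day 0 the 2115 genes higher became 1122 with no filter and 1161 when the 4 groups shared a fit, and the 2003 lower became 1067, 592 with TPM, and 1062 with all 4 groups. At day 14 the 298 higher became 44 with no filter, 169 with TPM and 1533 with all 4 groups, and the 181 lower became 32 with no filter, 1058 with all 4 groups and 310 with voom. Genes lower at day 14 in WT went from 5370 to 3460 with TPM. For the difference between the days, the 966 higher became 532 with no filter, 289 with TPM and 525 with voom, and the 667 lower became 392 with no filter.

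Leaving out 1 library gave 1369 to 1643 higher and 1294 to 1832 lower at day 0, 16 to 1804 higher and 28 to 1025 lower at day 14, and 510 to 2404 higher and 352 to 1968 lower for the difference between the days. The high ends at day 14 and for the difference came without WT replicate 3 of day 14. Without any other library of day 14 the genes higher at day 14 were 52 (WT replicate 1), 42 (WT replicate 2), 19, 16 and 24 (KO replicates 1 to 3), and the genes lower 28, 42, 32, 28 and 32. The median of the 10 genes for the difference between the days, −0.35, ran from −0.79 to 0.048, and turned positive (0.048) without WT replicate 3 of day 14. The causes were not tested.

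Replicate numbers did not pair the libraries (correlations of −0.63 to 0.15 in 18 same-number pairs). With the replicate block the genes lower at day 0 were 1290, those higher and lower at day 14 were 2 and 11, and those for the difference between the days were 544 and 390. Among single genes and list counts, 23 values moved by more than 1 residual SD, 158 calls or counts were weaker and 23 stronger. A sign changed in 58 values of 14 differences, none of which had been called. The 13 named genes that lost a call when 1 library was left out include *Zscan4-ps1*, at day 0 (adjusted p = 0.0518 to 0.0735). Depth limits *Tcstv1* and *Zfp352*, with 0 to 28 fragments per library.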
